A study of Mus musculus with 7 samples.

Results

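The 9 matrix metalloproteinase genes Mmp2, Mmp3, Mmp9, Mmp12, Mmp13, Mmp14, Mmp16, Mmp19 and Mmp23 were followed in repaired mouse shoulders. They were found by symbol and Ensembl identifier among 56854 gene identifiers listed for every library, and all 9 were listed. RNA of whole shoulder joints was sequenced 2 weeks after the supraspinatus tendon, part of the rotator cuff, had been repaired on the left side, with 1 library for each mouse. The groups are wild type (n = 3) and Tnc-/- (n = 4). Both groups had the repair, so the libraries compare genotypes after repair and hold no unoperated joint. Tnc-/- mice carry a deletion of Tenascin C, a glycoprotein of the extracellular matrix that is abundant in healing tendon. Where nothing in the labels says more of how the mice were bred or housed, p-values measure the spread between these mice alone.

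Matrix metalloproteinases are zinc enzymes that cut collagens, proteoglycans and other matrix proteins. They are made as inactive precursors, are switched on by removal of a propeptide, and are held in check by the tissue inhibitors of metalloproteinases (Timp proteins). In an injured tendon they clear damaged matrix and remodel the scar. Collagenases such as Mmp13 cut fibrillar collagen, the gelatinases Mmp2 and Mmp9 cut denatured collagen, and stromelysins such as Mmp3 cut proteoglycans and activate other family members. Mmp14 and Mmp16 are anchored in the cell membrane.

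Libraries held 13464057 to 18503833 gene counts in wild type and 19250322 to 28191101 in Tnc-/-. Tnc, the targeted gene, was at 437, 292 and 327 CPM in libraries 1 to 3 of wild type and at 33.4 to 55.0 CPM in Tnc-/-; CPM are the counts of a gene relative to the scaled library size. The files of the genotypes list different identifiers, 126 in wild type alone and 87 in Tnc-/- alone, so any difference in how they were counted cannot be told apart from genotype. Wild-type libraries 2 and 3 stood apart from the rest: over 16617 genes their highest correlation of log2 CPM with a Tnc-/- library was 0.770, against at least 0.959 for wild-type library 1 (across genes, which are not replicates). Tissue markers fixed for the joint were present, with Tnmd of tendon at 182 CPM or more and Acta1 of skeletal muscle at 8953 CPM or more in every library. The tendon factor Scx was listed at 0 throughout, but lies wholly inside Bop1, and the zeros of genes inside others are described below. In GENCODE M21 Acta1 lies wholly inside Gm20388 and 77.0% of the Tnc span inside other genes, yet both held counts. The epidermal keratin genes Krt5 and Krt14 were at or near 0. Krt10 of the same list was at 0.53 to 1.52 CPM in wild type and at 2.33 to 2.84 CPM in Tnc-/-. It was called higher by DESeq2 (adjusted p = 0.0442) and not by edgeR (adjusted p = 0.0776). Whole joints hold many cell types, so fewer cells of a type and less RNA per cell cannot be told apart.

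Of the 9 genes, 8 passed the filter on low counts. The exception was Mmp19, a secreted protease found in the basement membrane and skin, with 0 counts in all 7 libraries. With 3 counts as the floor this allows 0.111 to 0.199 CPM per library. In GENCODE M21 the whole Mmp19 gene lies inside the span of Gm47093, an antisense gene, which itself had 2 counts in all. Across protein-coding genes, 1128 of the 1283 that lie wholly inside the spans of other genes (87.9%) were at 0 in every library. The share was 17.6% among the 11691 that overlap no other gene. Mmp19 is therefore given as listed at 0, with nothing said of its expression. None of the other 8 genes has more than 5.02% of its span inside another gene.

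Most of the summed CPM of the 9 genes came from 4 of them. Mmp2, Mmp14, Mmp9 and Mmp13 together gave 91.5 to 95.8% of the summed CPM of the 9 genes in each library. That sum was 3363, 2248 and 2493 CPM in libraries 1 to 3 of wild type and 2366, 2474, 2639 and 3661 CPM in libraries 1 to 4 of Tnc-/-, so the genotypes overlapped. To compare genes with each other, CPM were divided by the kilobases of exon. Whether reads in introns were counted is not given in the sources used here. The order below holds only if exon reads make up the counts. Of protein-coding genes wholly inside other genes, 87.9% had no counts in any library, against 17.6% of those that overlap no other gene. Whether reads were counted over whole gene spans, introns included, was not tested. If they were, CPM per kb of exon need not rank the genes by level. In wild type the order of mean levels was Mmp2 at 264 CPM per kb, Mmp13 at 180.0, Mmp9 at 132, Mmp14 at 112, Mmp3 at 39.4, Mmp23 at 13.2, Mmp12 at 7.50 and Mmp16 at 4.54 CPM per kb. The ranges over libraries overlapped between Mmp13 and Mmp9, between Mmp9 and Mmp14, and between Mmp12 and Mmp16, though within each library Mmp13 was above Mmp9 and Mmp9 above Mmp14 in 3 of 3, and Mmp12 above Mmp16 in 2 of 3. In Tnc-/- Mmp2 again led at 273.0 CPM per kb, followed by Mmp14 at 146, Mmp13 at 145 and Mmp9 at 129. Mmp14 and Mmp13, and Mmp13 and Mmp9, overlapped there, with Mmp14 above Mmp13 in 2 of 4 libraries and Mmp13 above Mmp9 in 3 of 4. Mmp3 at 27.3, Mmp23 at 15.0, Mmp12 at 7.60 and Mmp16 at 1.22 CPM per kb came below, and of these Mmp3 and Mmp23 overlapped in range, with Mmp3 above Mmp23 in 4 of 4 libraries. With the longest transcript as length in place of all exons, the mean of Mmp14 over the 7 libraries was 242 in place of 131 CPM per kb, next to Mmp2 at 295.

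**Figure D1:**
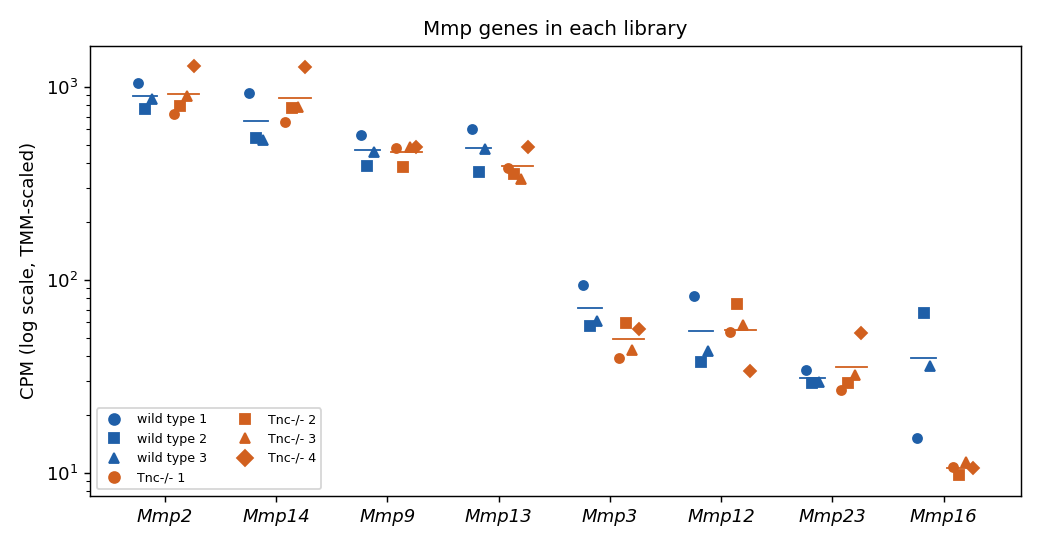
CPM of 8 Mmp genes in each library on a log axis; blue marks wild type, orange Tnc-/-, symbol shape the library number, and lines the group means. The genotypes overlap in every gene but Mmp16, whose 4 Tnc-/- libraries lie between 9.69 and 11.4 CPM.

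Which of these proteases differed between repaired Tnc-/- and wild-type joints was tested with edgeR's quasi-likelihood test, fitted on all 17791 genes that passed the filter. Of the 8 tested Mmp genes, 1 was called at an adjusted p under 0.05, Mmp16, which was lower in Tnc-/-. Over all genes tested 29.0% were called, 18.7% as lower and 10.3% as higher in Tnc-/-. Lower calls were 64.5% of all calls, but 27.5% with limma voom and 43.2% without wild-type libraries 2 and 3, where most calls were higher. The median log2 fold change of the 8 genes was -0.0055, against -9.0e-04 over all genes tested. Groups did not overlap in 1 of the 8, again Mmp16, where 17.4% of all genes lay lower in every Tnc-/- library and 17.7% higher. DESeq2 also called 1 of the 8, where it called 35.1% of all genes, and limma voom called 0, where it called 5.64%. Of the 8, 2 had an unadjusted p under 0.05 in edgeR, as did 7533 of the 17791 genes, and 2 in DESeq2.

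**Figure D2:**
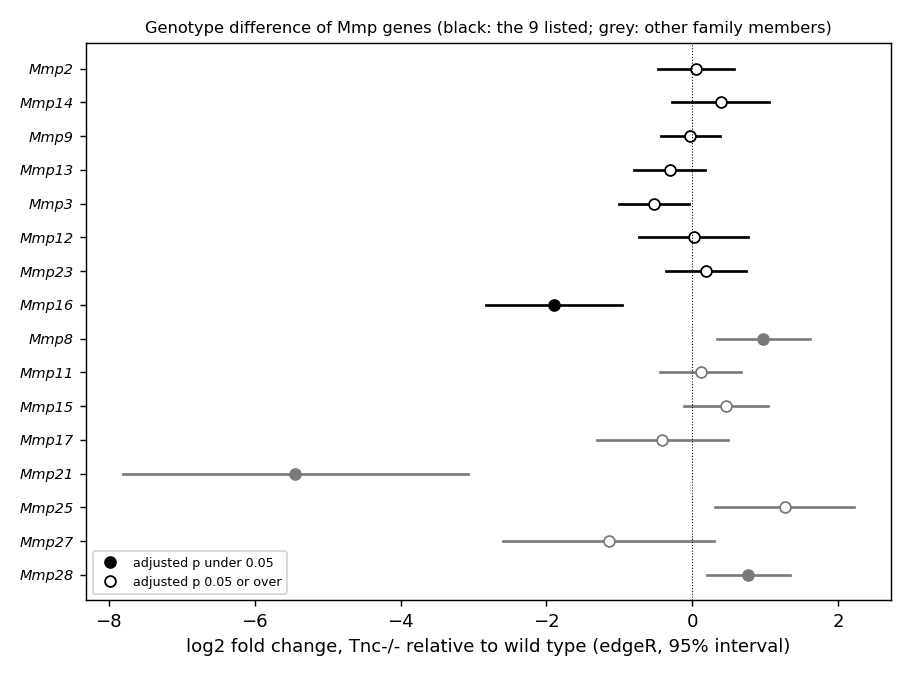
Log2 fold change of Tnc-/- relative to wild type with its 95% interval (edgeR) for the 8 tested Mmp genes in black and other tested family members in grey; filled points have an adjusted p under 0.05. Mmp20 is left out since all Tnc-/- libraries had 0 counts. Intervals of the 8 genes include 0 for all but Mmp3 and Mmp16.

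The gelatinases differed little between the genotype means. Mmp2, the main gelatinase of fibroblasts, was at 1041, 769 and 864 CPM in libraries 1 to 3 of wild type and at 724, 793, 890.5 and 1274 CPM in libraries 1 to 4 of Tnc-/-. Tnc-/- library 4 was the highest of all, and the groups overlapped. The log2 fold change was 0.05 with a 95% interval from -0.48 to 0.57 (edgeR, adjusted p = 0.898). Mmp9, the gelatinase of neutrophils and osteoclasts, was at 561, 386 and 456 CPM in wild type and at 480, 381, 486 and 485 CPM in Tnc-/-. Its groups overlapped as well, with a log2 fold change of -0.03 and an interval from -0.43 to 0.38 (edgeR, adjusted p = 0.917). Leaving out wild-type library 1 gave 0.27 for Mmp2 (adjusted p = 0.306) and 0.21 for Mmp9 (adjusted p = 0.267).

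Mmp14, the membrane collagenase that activates the Mmp2 precursor, was at 931, 540 and 527 CPM in libraries 1 to 3 of wild type. In Tnc-/- libraries 1 to 4 it was at 654, 775, 786 and 1264 CPM. Wild-type libraries 2 and 3 were the lowest of the 7, while wild-type library 1 lay above 3 of the 4 Tnc-/- libraries. The log2 fold change was 0.38 (SE 0.29, interval -0.28 to 1.05; edgeR, adjusted p = 0.352), so no difference was called. The result rests on wild-type library 1: without it the log2 fold change was 0.80 and was called (edgeR, adjusted p = 0.0102), in a fit that called 64.2% of all genes tested and kept only wild-type libraries 2 and 3, which stood apart. With wild-type libraries 2 and 3 left out it was -0.10 (adjusted p = 0.872).

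The activation complex of Mmp2 joins Mmp14 with the inhibitor Timp2, which binds both enzymes. Ratios within a library do not depend on the library scaling. The ratio of Mmp2 to Timp2 CPM was 0.664 ± 0.0355 in wild type (SD, n = 3) and 0.674 ± 0.019 in Tnc-/- (SD, n = 4). Mmp14 to Timp2 was 0.629, 0.46 and 0.387 in wild-type libraries 1 to 3 and 0.583, 0.665, 0.605 and 0.678 in Tnc-/-, so that wild-type library 1 lay among the Tnc-/- values. Mmp2 to Mmp14 was 1.12, 1.42 and 1.64 in wild type and 1.01 to 1.13 in Tnc-/-. These ratios are given as values and were not tested.

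**Figure D3:**
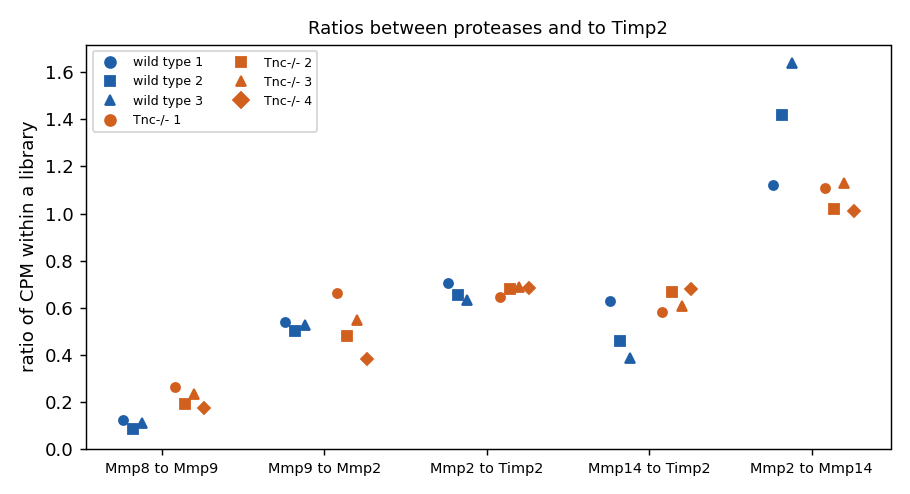
Ratios of CPM between 2 genes within each library, on a linear axis from 0; blue marks wild type, orange Tnc-/-, and symbol shape the library number. Mmp8 to Mmp9 separates the genotypes (0.083 to 0.123 against 0.174 to 0.261), while Mmp2 to Timp2 lies between 0.634 and 0.703 in all 7 libraries.

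Mmp13 and Mmp3 had lower means in Tnc-/- without a call. Mmp13, the main collagenase of mouse bone and hypertrophic cartilage, was at 605, 362 and 476 CPM in wild type and at 378, 352, 332 and 486 CPM in Tnc-/-, and the groups overlapped. Its log2 fold change was -0.31 (SE 0.21, interval -0.80 to 0.17; edgeR, adjusted p = 0.297), and -0.02 without wild-type library 1 (adjusted p = 0.921). Mmp3, stromelysin 1, was at 93.7, 57.6 and 61.4 CPM in wild type and at 39.4, 59.3, 43.1 and 55.2 CPM in Tnc-/-. Tnc-/- library 2 lay above wild-type library 2, and the other 3 Tnc-/- libraries lay under the whole wild-type range. The log2 fold change of Mmp3 was -0.53 (SE 0.21, interval -1.01 to -0.04) with an unadjusted p of 0.0364 and an adjusted p of 0.0943 in edgeR. Mmp3 was lower past the threshold in 4 of 21 alternatives, at -0.76 with scaling by library totals (adjusted p = 0.0172) and at -0.72 among genes spanning up to 30 kb (0.0177). It was at -1.13 with the sum of receptor genes of smell as a covariate (edgeR, adjusted p = 0.0458), where 2.23% of all genes were called. The other was the fit without wild-type libraries 2 and 3, at -0.93. There wild type is library 1 alone, the highest of all libraries for Mmp3. Without wild-type library 1 Mmp3 was at -0.18 (edgeR, adjusted p = 0.374).

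Mmp3, Mmp12 and Mmp13 lie in a cluster of Mmp genes on chromosome 9, and their starts are known for sites of AP-1, a transcription factor made of Fos and Jun proteins. The 150 bases before an annotated start are shown for them and for Mmp14, since the AP-1 subunits are among the inducers measured below. They are from RefSeq on build GRCm38.p6, plus strand, which matched 5 of the 9 genes. Capitals mark TGAGTCA or its reverse complement TGACTCA (AP-1, both strands) and TATAAA, the TATA motif, on the strand of the gene; the motifs do not overlap.
Mmp13 (chr9:7272364-7272513): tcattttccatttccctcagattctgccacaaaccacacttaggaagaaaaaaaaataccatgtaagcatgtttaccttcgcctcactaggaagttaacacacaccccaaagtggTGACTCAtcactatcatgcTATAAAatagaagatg
Mmp12 (chr9:7347224-7347373): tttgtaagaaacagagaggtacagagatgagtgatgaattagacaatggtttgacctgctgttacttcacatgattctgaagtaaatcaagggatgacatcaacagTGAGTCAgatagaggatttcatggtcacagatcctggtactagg
Mmp3 (chr9:7445672-7445821): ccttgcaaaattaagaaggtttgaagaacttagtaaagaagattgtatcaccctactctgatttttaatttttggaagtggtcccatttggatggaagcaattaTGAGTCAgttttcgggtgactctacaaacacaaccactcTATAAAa
Mmp14 (chr14:54431448-54431597): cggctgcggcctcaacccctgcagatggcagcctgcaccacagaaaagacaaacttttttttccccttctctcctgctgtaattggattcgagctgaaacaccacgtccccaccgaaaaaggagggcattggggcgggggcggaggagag
The AP-1 letters begin 35 bases before the start in Mmp13, 44 in Mmp12 and 46 in Mmp3, and TATAAA was found before the starts of Mmp13 and Mmp3. The windows of Mmp14, both windows of Mmp23 and a further window of Mmp12 held neither. AP-1 letters were in 2.84% of the 32851 windows of this length in the table, TATAAA in 4.84% and both in 0.228%. A match is a description of the letters and not a binding site.

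Mmp12, the elastase of macrophages, was at 82.6, 37.5 and 42.6 CPM in libraries 1 to 3 of wild type and at 53.4, 74.6, 58.4 and 33.5 CPM in libraries 1 to 4 of Tnc-/-. The highest and the lowest library belonged to different genotypes, and the groups overlapped over most of their range. The log2 fold change was 0.02 (SE 0.33, interval -0.73 to 0.76; edgeR, adjusted p = 0.974). Without wild-type library 1 it was 0.55 (adjusted p = 0.063). Of the 12 macrophage markers 11 were tested and 1 was called, Marco (named after its values were seen), which was lower in Tnc-/-. Marco was at 0.590, 15.7 and 8.38 CPM in libraries 1 to 3 of wild type and 0.280 to 0.555 CPM in Tnc-/-, so its excess lay in wild-type libraries 2 and 3. Over all genes 18.7% were called lower. With the receptor-gene covariate 0 macrophage markers were called, where 2.23% of all genes were. The list summed to 1815 to 3491 CPM in wild type and 2842 to 3290 CPM in Tnc-/-, with Itgam listed at 0. The part of macrophage content in Mmp12 was not tested.

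Mmp23, a small membrane protease freed from the cell by cleavage, was at 34.2, 29.1 and 29.5 CPM in wild type and at 26.8, 29.1, 32.0 and 52.9 CPM in Tnc-/-. Only Tnc-/- library 4 lay above all wild-type libraries. The log2 fold change was 0.19 (SE 0.24, interval -0.36 to 0.74; edgeR, adjusted p = 0.595).

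Single libraries shaped the pattern of the family. Within wild type, library 1 was the highest for 7 of the 8 genes, at 1.17 times (Mmp23) to 2.06 times (Mmp12) the mean of libraries 2 and 3. For Mmp16 it was the lowest, at 0.293 times that mean. Within Tnc-/-, library 4 was the highest for Mmp2, Mmp13, Mmp14 and Mmp23, at 1.37 to 1.81 times the mean of the others, and the lowest for Mmp12, at 0.540 times. The summed level of 10 fibroblast genes was also highest in that library, at 41820 CPM against 25270 to 27650 CPM in the other Tnc-/- libraries. Col1a2 and Col3a1 made up most of that sum, at 19930 and 15630 CPM. Of the 10 genes 8 were highest there among the Tnc-/- libraries, Dcn by little (2115 against 2095 CPM), while Pdgfra was not and Dpp4 was lowest there. In wild type the sum was at 38450 CPM in library 1 and at 24570 and 30660 CPM in libraries 2 and 3. Of the list 1 gene was called higher and 1 lower in Tnc-/-, against 10.3% and 18.7% of all genes. With the receptor-gene covariate 0 were called, where 2.23% of all genes were. With library totals 0 were higher and 3 lower, where 30.9% of all genes were called, 82.7% of them lower. Lists of tendon (24660 against 13690 to 16140 CPM), osteoblast and bone matrix (20920 against 11490 to 13770 CPM) and cartilage genes (5515 against 2563 to 4117 CPM) also had their highest sum of the Tnc-/- libraries in library 4, and some share collagen genes. The part of these tissues in Mmp2, Mmp13, Mmp14 and Mmp23 was not tested.

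Mmp16, a membrane protease known to activate the Mmp2 precursor, was lower in Tnc-/-. It was at 15.1, 67.3 and 35.7 CPM in libraries 1 to 3 of wild type and at 10.7, 9.69, 11.4 and 10.6 CPM in libraries 1 to 4 of Tnc-/-. The groups did not overlap, but wild-type library 1 lay far closer to the Tnc-/- libraries than to the other wild-type libraries. The means were 39.4 ± 26.3 CPM (SD, n = 3) for wild type against 10.6 ± 0.689 CPM (SD, n = 4) for Tnc-/-. The log2 fold change was -1.89 (SE 0.41, interval -2.83 to -0.96; edgeR, adjusted p = 0.012). The call held in all 7 fits that dropped a library, at adjusted p of at most 0.0465, and the value was -1.26 without wild-type library 2. With wild-type libraries 2 and 3 left out it was -0.52 (adjusted p = 0.185), and limma voom gave -1.60 (adjusted p = 0.105).

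Wild-type libraries 2 and 3 also held more counts on other long genes and on receptor genes of smell. Mmp16 spans 266 kb in GENCODE M21, against 2.73 to 26.1 kb for the other 7 tested genes. The median log2 ratio to the Tnc-/- mean over the 1999 tested genes spanning 100 to 300 kb was 0.104, 1.01 and 0.798 in wild-type libraries 1 to 3, where Mmp16 was at 0.491, 2.61 and 1.71. Of those 1999 genes 44.7% were called lower in Tnc-/-. Olfactory and vomeronasal receptor genes, which a shoulder is not known to use, summed to 89.2, 1399 and 982 CPM in libraries 1 to 3 of wild type and to 36.5 to 43.9 CPM in Tnc-/-. With this sum as a covariate the log2 fold change of Mmp16 was 0.07 (edgeR, adjusted p = 0.93). The sum was higher in every wild-type library than in every Tnc-/- library, so this fit cannot separate it from genotype. The same limit holds wherever this covariate is used.

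**Figure D4:**
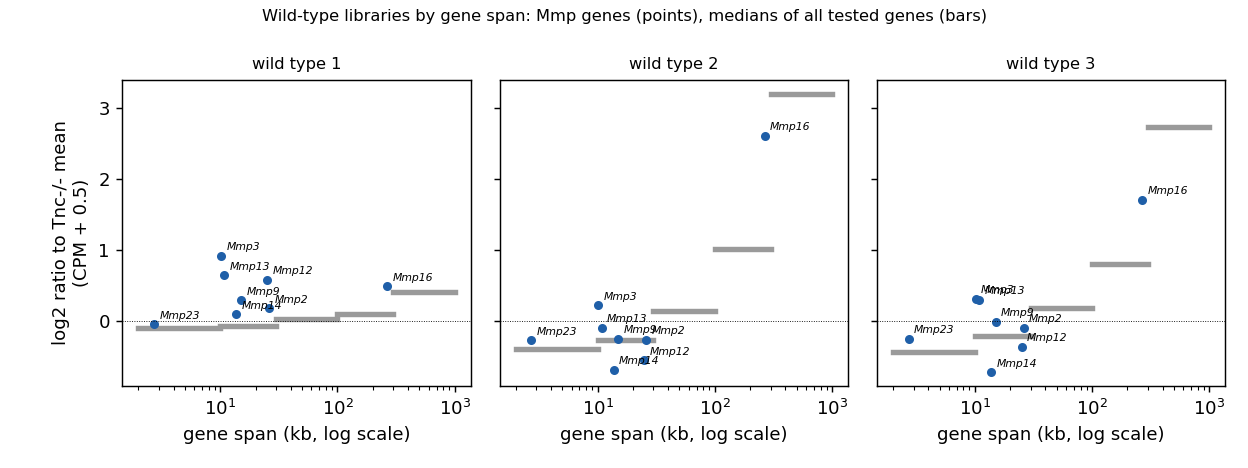
Log2 ratio of each wild-type library to the Tnc-/- mean (CPM + 0.5) against gene span on a log axis; blue points are the 8 Mmp genes and grey bars the medians of all tested genes in 5 span classes. Mmp16 lies at 2.61 in library 2 and 1.71 in library 3, where the bars for long genes rise too, and at 0.491 in library 1.

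The genes with a profile most like Mmp16 over the 7 libraries were sought among 12308 genes whose mean reached 5 CPM, by the root mean square difference of centred log2 CPM. The nearest were Nme7 at 0.134, Pdzrn4 at 0.136 and Prkd1 at 0.141 log2 units. Pdzrn4 was at 14.3, 68.9 and 41.7 CPM in libraries 1 to 3 of wild type and 9.31 to 11.9 CPM in Tnc-/-. The 3 genes span 134, 375 and 308 kb. Of the 17791 genes tested, 1999 span 100 to 300 kb and 586 span over 300 kb.

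The edgeR counts of called genes in the lists that follow are to be set against 29.0% called over all genes tested, 18.7% lower and 10.3% higher. Counts of other fits go with their own shares of all genes called. These were 35.1% for DESeq2, 5.64% for limma voom, 30.9% for library totals and 2.23% for the receptor-gene covariate. Without wild-type libraries 2 and 3 wild type is 1 library, assumed to vary like the Tnc-/- libraries. Calls lost there cannot show that a difference rests on those libraries. Fold changes moved unequally, with Itgav at -0.72 against -0.62 in the main fit, and Furin at 0.30 against 0.68.

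Other members of the family numbered 14, of which 9 were tested. In edgeR 2 of them rose and 2 fell in Tnc-/-, and DESeq2 called 5 and limma voom 0. Mmp8, the neutrophil collagenase, rose: it was at 69.2, 32.0 and 50.6 CPM in wild type and at 125, 73.3, 114 and 84.5 CPM in Tnc-/-, with no overlap. Its log2 fold change was 0.97 (interval 0.33 to 1.61; edgeR, adjusted p = 0.0326). Removing library 2 or 3 of wild type, or Tnc-/- library 1, 3 or 4, ended the call (adjusted p up to 0.11). Mmp8 was at 0.25 with the receptor-gene covariate (adjusted p = 0.764) and 0.52 without wild-type libraries 2 and 3 (0.255), and library totals (0.0645) and limma voom (0.0769) also ended the call. Mmp28, epilysin, named after its values were seen, rose from 7.86 ± 1.72 (SD, n = 3) to 13.4 ± 0.789 CPM (SD, n = 4), at 0.77 (edgeR, adjusted p = 0.0482); removing any library but wild-type library 1 ended that call (adjusted p up to 0.15). So did limma voom, the 3 other scalings and 2 other filters on low counts, the receptor-gene covariate (0.29, adjusted p = 0.701) and leaving out wild-type libraries 2 and 3 (0.45, adjusted p = 0.264), among others. Mmp20, the enamel protease, fell: it had 0 counts in all Tnc-/- libraries and was at 1.02, 17.2 and 11.2 CPM in wild type, at least 65.2-fold lower against 3 counts per library. Without wild-type library 2 that limit was 40.7-fold, and from wild-type library 1 alone 6.76-fold. Mmp21 fell from 0.859, 15.6 and 9.90 CPM in wild type to 0.0370 to 0.390 CPM (-5.44; edgeR, adjusted p = 0.00881). In both, wild-type libraries 2 and 3 were far above library 1, as in Mmp16. With those libraries left out Mmp21 was at -2.11 (adjusted p = 0.276) and Mmp20 narrowly missed the threshold (adjusted p = 0.0518); with the receptor-gene covariate Mmp20 was still called (0.0338) and Mmp21 was not (0.599). Of the 5 genes that were not tested, Mmp7 was at 0 in all libraries and Mmp1a, Mmp1b and Mmp10 did not exceed 1.15 CPM in any. Mmp24 was at 0.376, 12.8 and 7.84 CPM in wild type and 0.185 to 0.504 CPM in Tnc-/-.

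Mmp8 and Mmp9 are both stored in neutrophil granules. The difference between their fold changes was not tested. The ratio of Mmp8 to Mmp9 was 0.123, 0.083 and 0.111 in wild-type libraries 1 to 3 and 0.261, 0.192, 0.235 and 0.174 in libraries 1 to 4 of Tnc-/-, so that every Tnc-/- library lay above every wild-type library. Of the 12 neutrophil markers, Mmp8 included, 9 rose in Tnc-/- and 0 fell, where 10.3% of all genes rose. Limma voom called 3 of the 12, where it called 5.64% of all genes. With the receptor-gene covariate 0 were called, where 2.23% of all genes were. Without wild-type libraries 2 and 3 Mmp8 was at 0.52, against 0.97 in the main fit. The list summed to 5958, 2844 and 3139 CPM in wild type and to 6599 to 11210 CPM in Tnc-/-. Of the 9 osteoclast markers, cells that also make Mmp9, 8 were tested, with 1 higher and 2 lower in Tnc-/- and Acp5 listed at 0. The lower genes, named after their values were seen, were Calcr and Tnfrsf11a, both highest in wild-type libraries 2 and 3 (Tnfrsf11a at 49.8 and 41.9 CPM, against 18.6 in library 1). Tnc-/- lay below wild type without overlap in 5 of the 8, against 17.4% of all genes. Without wild-type libraries 2 and 3, or with the covariate, neither was called, and Atp6v0d2 was called lower instead, at -0.82 (adjusted p = 0.0349) and -1.15 (0.0359). Their sum was 785 to 1003 CPM in wild type and 680 to 966 CPM in Tnc-/-. Of 10 skeletal muscle genes 2 rose and 0 fell, 7 lay higher in Tnc-/- without overlap against 17.7% of all genes, and their sum was 23220 to 31560 CPM in wild type and 33890 to 50350 CPM in Tnc-/-. Myh4, a fast myosin named after its values were seen, was at 1.18 (edgeR, adjusted p = 0.00856). With the covariate 0 muscle genes were called, where 2.23% of all genes were. The part of these cell types in Mmp8 and Mmp9 was not tested.

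Of 6 inhibitors of the proteases, 3 were tested and none of those was called in edgeR. Timp1, Timp3 and Timp4 had 0 counts in all 7 libraries. In GENCODE M21 they lie wholly inside Syn1, Syn3 and Gm17482, as Mmp19 does inside Gm47093. Of the 3 inhibitors tested, edgeR, DESeq2 and limma voom called 0, and 0 had an unadjusted p under 0.05 in edgeR. Timp2 was at 1339 ± 154 CPM (SD, n = 3) for wild type against 1362 ± 344 CPM (SD, n = 4) for Tnc-/-, at 0.02 with an interval from -0.48 to 0.53 (edgeR, adjusted p = 0.945). Reck, a membrane inhibitor of several Mmp enzymes, was at 43.8, 34.1 and 47.6 CPM in wild type and 28.0, 30.3, 36.5 and 41.5 CPM in Tnc-/-, at -0.30 (edgeR, adjusted p = 0.255). With scaling by library totals Reck was called lower, at -0.54 (edgeR, adjusted p = 0.0492).

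Among 10 genes that activate the precursors, 9 were tested, 2 rose and 1 fell, a share near that over all genes. DESeq2 and library totals each called 2 higher and 2 lower, and limma voom called 1. Plat, named after its values were seen, was lower in both, at -0.40 (DESeq2, adjusted p = 0.0175) and -0.60 (edgeR, adjusted p = 0.0122). Plaur, the urokinase receptor that gathers plasmin activation at the cell surface, was at 31.5, 28.1 and 28.6 CPM in wild type and at 57.1, 43.8, 64.4 and 55.3 CPM in Tnc-/-. Every Tnc-/- library lay above every wild-type library, with a log2 fold change of 0.91 (interval 0.55 to 1.26; edgeR, adjusted p = 0.0074). Its call held in the 7 fits that each dropped 1 library (adjusted p up to 0.037) and was lost with the receptor-gene covariate (0.75, adjusted p = 0.158) and without wild-type libraries 2 and 3 (0.80, adjusted p = 0.0518), where the fold change stayed near its main value. Furin, the convertase that cleaves Mmp14 and other membrane Mmp precursors, rose from 98.8, 62.2 and 68.2 CPM to 111, 112, 122 and 144 CPM (0.68; edgeR, adjusted p = 0.0271). Pcsk5, a related convertase with a span of 405 kb, fell from 51.0 ± 21.6 (SD, n = 3) to 28.4 ± 3.99 CPM (SD, n = 4), at -0.84 (edgeR, adjusted p = 0.0435). Dropping any library but wild-type library 1 ended the calls of Furin and Pcsk5 (adjusted p up to 0.151). So did limma voom for Furin and Pcsk5 (adjusted p = 0.0632 and 0.117). With the receptor-gene covariate Furin and Pcsk5 were at 0.10 and 0.15, with no call, and without wild-type libraries 2 and 3 at 0.30 and -0.16.

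Of 7 genes that dock or clear the proteases, 3 rose and 1 fell. Lcn2, the neutrophil protein that binds Mmp9, rose from 339, 139 and 198 CPM to 658, 400.1, 491 and 424 CPM (1.13; edgeR, adjusted p = 0.0285). Lrp1, the receptor that takes up Mmp9, Mmp13 and other proteases, rose from 606, 424 and 480 CPM to 766, 730, 1001 and 993 CPM (0.79; edgeR, adjusted p = 0.0207). Itgb3, named after its values were seen, rose by 0.87 (edgeR, adjusted p = 0.0315). Itgav, an integrin chain that pairs with Itgb3, fell from 101.5, 81.5 and 102 CPM to 60.1 to 64.4 CPM (-0.62; edgeR, adjusted p = 0.00929). The call of Itgav held in every fit that dropped 1 library and without wild-type libraries 2 and 3 (adjusted p = 0.0223), and was lost with the receptor-gene covariate (-0.79, adjusted p = 0.0615). Those of Lcn2 and Itgb3 ended on removing library 2 or 3 of wild type, or Tnc-/- library 1, 3 or 4 (adjusted p up to 0.115). Limma voom also ended both (adjusted p = 0.0621 and 0.0692), and library totals ended that of Itgb3 (edgeR, adjusted p = 0.0604). That of Lrp1 ended on removing library 2 or 3 of wild type, or Tnc-/- library 3 or 4 (up to 0.0803). With the receptor-gene covariate Lcn2, Itgb3 and Lrp1 were at 0.22, 0.16 and 0.36, and without wild-type libraries 2 and 3 at 0.54, 0.42 and 0.52, with no call in either.

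Of 20 inducers of Mmp transcription, 19 were tested, 3 rose and 0 fell. DESeq2 called 4 and limma voom 0, and with scaling by library totals 1 was called higher and 2 lower. Tgfb1, which in many fibroblasts lowers Mmp3 and raises Mmp2, was at 99.6 ± 28.2 CPM (SD, n = 3) for wild type against 169 ± 15.8 CPM (SD, n = 4) for Tnc-/-, at 0.77 (edgeR, adjusted p = 0.0203). Junb, a subunit of AP-1, was at 61.2, 72.0 and 44.3 CPM in wild type and at 78.0, 87.1, 114 and 116 CPM in Tnc-/-, at 0.74 (edgeR, adjusted p = 0.0301). Il1b, a cytokine that induces Mmp3 and Mmp13, was at 2.86 to 6.12 CPM in wild type and 7.11 to 14.5 CPM in Tnc-/-, at 1.29 (edgeR, adjusted p = 0.0375). Fos, Jun and Runx2, which act at the Mmp13 promoter, were not called in edgeR, at 0.10, 0.18 and -0.58 (named after their values were seen). Runx2 was called lower by DESeq2 (-0.63, adjusted p = 0.0278) and with scaling by library totals (-0.85, adjusted p = 0.0286), and its main interval was -1.06 to -0.11 (edgeR, adjusted p = 0.0646). Removing wild-type library 3 or Tnc-/- library 3 ended all 3 calls. Wild-type library 2 and Tnc-/- library 1 did so for Tgfb1 and Il1b, Tnc-/- library 2 for Junb and Il1b, and Tnc-/- library 4 for Tgfb1 and Junb (adjusted p up to 0.124). The receptor-gene covariate ended all 3 calls too, with Tgfb1 at 0.15, Il1b at 0.74 and Junb at 0.70, as did leaving out wild-type libraries 2 and 3, with Tgfb1 at 0.37, Il1b at 0.85 and Junb at 0.69.

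Of 12 collagens and matrix proteins that these enzymes cut, 1 was called in edgeR. DESeq2 called 2 higher and limma voom 0, and with scaling by library totals 0 were higher and 1 lower (Vcan, named after its values were seen, at -0.58, adjusted p = 0.0338). Col4a1, a basement membrane collagen, rose from 258, 207 and 162 CPM to 264, 373, 331 and 434 CPM (0.74; edgeR, adjusted p = 0.0352). Removing library 2 or 3 of wild type, or Tnc-/- library 2, 3 or 4, ended the call (adjusted p up to 0.132). It was at 0.31 with the receptor-gene covariate and at 0.44 without wild-type libraries 2 and 3, with no call in either. Col1a1 and Col3a1, the main substrates in tendon scar, were at 0.27 and -0.01 with overlapping groups (edgeR, adjusted p = 0.542 and 0.981).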

How the data were processed

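Whole shoulder joints of 7 mice were sequenced from poly(A) RNA with a NEBNext Ultra kit, per the labels' protocols. The deposited values are raw counts per gene, 1 file per library; the submitters' processing notes name HISAT2 2.2.1, HTSeq 2.0.2 and builds GRCm39 and mm39, and the annotation is not given in the sources used here. Rows that name no gene held 30.1 to 32.7% of the reads listed for Tnc-/- and were left out; the wild-type files held no such rows. Samples were grouped by title. All columns of values were mapped (0 were not).

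The 56854 identifiers in all files were tested in edgeR 4.0.16 (R 4.3.3) with filterByExpr, TMM scaling, robust dispersions and the quasi-likelihood F test, with genotype as the term and Benjamini-Hochberg adjustment over all genes tested. The code was tested on simulated data. SE is the fold change over the square root of F. Lengths and spans came from GENCODE M21 (GRCm38), which held 91.5% of identifiers, so no gene coordinates are given on the files' build. Floors are 3 counts per library and cover counting error.

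The members, gene lists and tests were chosen with earlier results of these data known. All 9 members are named. From each pathway list up to 3 called genes with the smallest p are named, with Timp1 to Timp4 and Reck; other genes named were chosen after their values were seen. Alternatives were DESeq2 1.42.0, limma 3.58.1 (voom), Bonferroni adjustment, other scalings and filters, a receptor-gene covariate, genes spanning at most 30 kb, the replicate number as a block and leaving out libraries.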

Additional observations from a re-analysis of the deposited data

Results flagged for a closer look

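Of 34 values examined over the 4 Tnc-/- libraries, 2 had a lone library distant from its group; chance gives about 1 in 20. Mmp9 in Tnc-/- library 2 was at 381.4 CPM, against 480 to 486 CPM in the others, a gap of 0.941 of the whole range. The ratio of Mmp2 to Timp2 in Tnc-/- library 1 was 0.646, against 0.681 to 0.686, a gap of 0.886 of the range.

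The files of Tnc-/- also list reads that the counter could not assign to 1 gene, which enter no comparison. They were 11.51, 11.58, 11.43 and 11.57% of the reads in libraries 1 to 4 of Tnc-/-.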

How the results depend on the processing

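Over 21 alternatives the count of called genes, 5159, was within 1.5 times in 6. It was 1653 with DESeq2 and Bonferroni adjustment, 22 with edgeR and Bonferroni adjustment, 1004 with limma voom, 397 with the receptor-gene covariate, 825 without wild-type libraries 2 and 3, 1995 for genes spanning at most 30 kb and 2203 for genes that overlap no other gene (an alternative chosen after seeing the data). Leaving out 1 library gave 2229 to 14113. Library totals gave 82.7% lower calls against 64.5%; limma voom gave 27.5%, edgeR with Bonferroni adjustment 18.2%, DESeq2 with Bonferroni adjustment 83.1%, the covariate 52.6%, the replicate block 54.3% and leaving out wild-type libraries 2 and 3 43.2%. Library totals shifted the median of all genes to -0.243 from -9.0e-04. The cause of these shifts was not tested. Same-numbered libraries did not deviate together (r = -0.00906, 0.109 and -0.00500). Wild-type libraries 2 and 3 stood apart from the rest, so these values cannot decide whether the numbers pair libraries. With the replicate block 1932 genes (10.9% of those tested) and 0 Mmp genes were called, with Mmp16 at -1.65 (edgeR, adjusted p = 0.0775).

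The count of called Mmp genes, 1, was 0 under both Bonferroni adjustments, limma voom and, where Mmp16 was not tested, genes outside other genes. It was 2 with library totals, and 1 to 2 without 1 library. Mmp3 was the called gene with the covariate, among genes up to 30 kb and without wild-type libraries 2 and 3, where wild type is library 1 alone.

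Directions turned as follows, none of them with a call. Under the covariate the log2 fold changes were -0.35 (Mmp2), -0.85 (Mmp12), -0.39 (Mmp14), 0.075 (Mmp16), -0.092 (Mmp23), 0.15 (Pcsk5) and -0.26 (Timp2). Under library totals Mmp2 was at -0.19, Mmp12 at -0.19, Mmp23 at -0.058 and Timp2 at -0.22. Without wild-type libraries 2 and 3 Mmp2 was at -0.18, Mmp12 at -0.59, Mmp14 at -0.10 and Timp2 at -0.13. Among genes up to 30 kb Mmp2 was at -0.17, Mmp12 at -0.15 and Mmp23 at -0.033. With the replicate block Mmp2 was at -0.14, Mmp23 at -0.079 and Timp2 at -0.16. With at least 10 counts in every sample Mmp2 was at -0.031, Mmp12 at -0.0498 and Timp2 at -0.054; with upper-quartile scaling they were at -0.019, -0.0501 and -0.041. DESeq2 gave -0.0216 for Mmp12 and -0.0182 for Timp2 with either adjustment, and its size factors in edgeR -0.0224 and -0.0182. Genes that overlap no other gene gave -0.023 for Mmp2, and no filter gave 0.045 for Mmp9. Leaving out 1 library moved Mmp2 from -0.15 to 0.27, Mmp9 from -0.15 to 0.21, Mmp12 from -0.19 to 0.55, Mmp23 from -0.082 to 0.36 and Timp2 from -0.17 to 0.20. With the longest transcript as length the mean levels were 12.2 (Mmp12), 242 (Mmp14) and 23.3 CPM per kb (Mmp23), against 7.55, 131 and 14.3.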
